A study of Homo sapiens with 15 samples.

Results

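To examine how a secretory prostate cancer cell is equipped to fold proteins, 41 genes of endoplasmic reticulum (ER) folding and the unfolded protein response were described in C4-2B cells. The genes are a list of names chosen by function, with no level in the rule, although earlier results of these data were known when it was made. They are 41 of the 58302 genes in the deposited tables. All 41 are protein-coding and each matched a single entry of the tables by symbol. They were sorted into 11 roles, which are the IRE1, PERK and ATF6 arms, the CREB3L factors, and 7 roles in folding, quality control and entry of proteins into the ER. The series labels 15 RNA-seq libraries in 5 groups of 3, namely C4-2B, and DKD and ER cells with a scrambled control (scr) or an siRNA to Pax5. Count tables of the C4-2B group alone were analysed here, so levels are described within this cell line and no comparison between groups was made. C4-2B is an established human prostate adenocarcinoma line, labelled wild type, grown in RPMI with fetal bovine serum, with no drug or siRNA named for these 3 libraries. It is a single line, and since the labels do not say that the replicates were separate cultures, their spread may be technical.

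The unfolded protein response adjusts the folding capacity of the ER to the load of new proteins. It is read by 3 sensors in the ER membrane, which the chaperone HSPA5 (BiP) holds inactive when the load is low. IRE1, the product of ERN1, removes a short intron from XBP1 mRNA so that an active factor is made. PERK, the product of EIF2AK3, phosphorylates eIF2alpha, which slows translation in general and favours translation of ATF4. ATF6 moves to the Golgi, where it is cleaved, and its freed part enters the nucleus and acts with NF-Y on ER chaperone promoters. Prostate luminal cells are secretory and send kallikreins and other glycoproteins through the ER. Counts per gene hold no reading of XBP1 splicing, eIF2alpha phosphorylation or ATF6 cleavage, so all values below are amounts of RNA.

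The DNA element through which ATF6 and NF-Y act, the ER stress response element (ERSE), is shown first because several of the most abundant genes described here carry it. It was searched as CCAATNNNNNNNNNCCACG on both strands in the 250 bases before 1 RefSeq start per gene symbol (GRCh38.p14). Any further starts of a gene were not searched, and the start used can lie inside the gene model that was counted. For CANX the window began at 179698679 on chromosome 5 and the gene model at 179678628. A promoter was present for 38 of the 41 genes in the table used, and DERL1, ERN2 and PDIA3 were without an entry. ERSE was found in 7 of the 38 (18.4%), compared with 22 of all 27305 promoters (0.0806%) and 14 of 9855 promoters of expressed protein-coding genes (0.142%), both of which include these 7. The 8 matches, read in the direction of the element with its fixed letters in capitals, were as follows.
CALR: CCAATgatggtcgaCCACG
HSPA5: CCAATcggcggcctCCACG
HSP90B1, upstream match: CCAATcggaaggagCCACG
HSP90B1, downstream match: CCAATcgcgccgcaCCACG
CANX: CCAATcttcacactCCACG
XBP1: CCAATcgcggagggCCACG
CRELD2: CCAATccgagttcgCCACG
ERO1B: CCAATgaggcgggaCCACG

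The related element ERSE-II, searched as ATTGGNCCACG, was found in 3 of the 38 promoters (7.89%) in 14 of all 27305 (0.0513%), and in 0.112% of promoters of expressed protein-coding genes. These belonged to SDF2L1, HYOU1 and HERPUD1, and HYOU1 held 2 copies. Their matches are short and differ at the free base.
SDF2L1: ATTGGtCCACG
HYOU1, both matches: ATTGGaCCACG
HERPUD1: ATTGGgCCACG

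The core of the unfolded protein response element bound by ATF6 and XBP1, TGACGTG, was found in 2 of 38 promoters (5.26%), HYOU1 and DNAJC10, in 1.71% of all promoters and in 2.17% of those of expressed protein-coding genes. In HYOU1 it overlapped the upstream ERSE-II by 4 bases. The ATF4 element, searched as TGATGNAAT, was found in 0 of 38 promoters in this window, in 0.916% of all promoters and in 0.365% of those of expressed protein-coding genes. Nothing is read from these last 2 counts, given their backgrounds. In all, 11 of the 38 promoters held at least 1 of the 4 elements. The mean levels of the 7 genes with ERSE ran from 5.92 TPM (ERO1B) to 1655 TPM (CALR), with a median of 439 TPM against 60.5 TPM for the 31 without it. TPM is a gene's count divided by the length of its exons and scaled to a sum of 1000000 per library. This is a description of listed genes, several of which are textbook targets of the response. A higher share of ERSE and ERSE-II than over all promoters was thus partly fixed by the choice of genes. It is no test of the set. The median GC content was 64.8% in the 38 promoters, 65.2% in those of expressed protein-coding genes and 58.0% in all promoters. A match says only that these letters are present, and binding was not measured here. Only exact matches were counted, so a promoter without a match may still hold a variant of an element.

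Whole promoters are printed for HSPA5, HSP90B1, XBP1 and HYOU1, with the matches in capitals, to show how close these lie to the gene start. That of HSPA5 (chr9:125241344-125241593, minus strand) holds its match from 66 to 48 bases before the start, and that of XBP1 (chr22:28800570-28800819, minus strand) from 52 to 34 bases. That of HSP90B1 (chr12:103930160-103930409, plus strand) holds a match on each strand and lies inside the Ensembl gene, which starts further upstream, and that of HYOU1 (chr11:119057206-119057455, minus strand) holds both ERSE-II copies on its reverse strand.
HSPA5: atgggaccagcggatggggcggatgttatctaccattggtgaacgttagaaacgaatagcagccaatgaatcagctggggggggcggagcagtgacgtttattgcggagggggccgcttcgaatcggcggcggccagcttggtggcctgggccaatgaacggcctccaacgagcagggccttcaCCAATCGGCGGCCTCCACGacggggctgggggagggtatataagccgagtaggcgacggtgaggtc
XBP1: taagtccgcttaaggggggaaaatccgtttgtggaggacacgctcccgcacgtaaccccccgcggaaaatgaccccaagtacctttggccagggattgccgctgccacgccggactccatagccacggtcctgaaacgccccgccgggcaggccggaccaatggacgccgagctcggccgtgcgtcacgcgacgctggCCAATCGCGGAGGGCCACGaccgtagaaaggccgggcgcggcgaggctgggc
HSP90B1: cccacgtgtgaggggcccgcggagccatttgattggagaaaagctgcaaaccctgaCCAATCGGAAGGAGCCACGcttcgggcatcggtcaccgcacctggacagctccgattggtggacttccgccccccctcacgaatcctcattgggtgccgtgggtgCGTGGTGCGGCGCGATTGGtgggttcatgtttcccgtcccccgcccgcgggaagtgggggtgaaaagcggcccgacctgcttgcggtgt
HYOU1: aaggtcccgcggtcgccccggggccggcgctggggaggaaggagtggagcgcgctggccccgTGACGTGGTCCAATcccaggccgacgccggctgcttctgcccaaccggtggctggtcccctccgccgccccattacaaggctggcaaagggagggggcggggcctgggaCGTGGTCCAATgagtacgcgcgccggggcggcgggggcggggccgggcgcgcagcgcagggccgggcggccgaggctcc

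**Figure D1:**
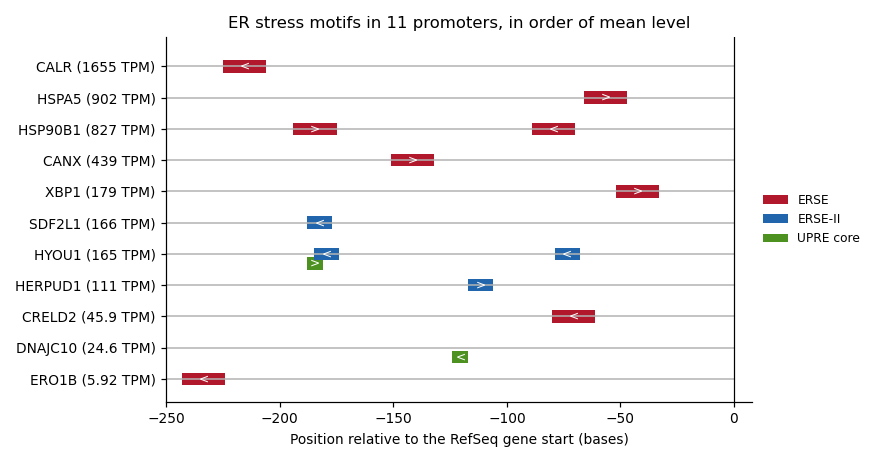
Each line is the 250 bases before the RefSeq start of a gene, drawn by position relative to that start on the horizontal axis, with boxes for ERSE, ERSE-II and the UPRE core and arrowheads for their strand. The 11 genes are in order of mean level, and 5 of the 7 with ERSE are the first drawn, from CALR at 1655 TPM to XBP1 at 179 TPM. Promoters without a match are not drawn. Among these, PDIA4 (581 TPM), P4HB (435 TPM), ATF4 (426 TPM), SEC61A1 (394 TPM) and MANF (250 TPM) also lie above XBP1.

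Of the other 15 genes with ERSE, 7 were expressed protein-coding genes, 5 were under 1 TPM and 3 were not in the count tables. Among the 7, SERP1, which stabilises ER membrane proteins under stress, was at 125 TPM, and FICD, which modifies HSPA5, was at 13.0 TPM. ALG12, whose exons overlap those of CRELD2 on chromosome 22, was at 14.7 TPM. The others were EIF2A (132 TPM), TMEM120A (34.2 TPM), TRIM5 (31.6 TPM) and ZNF17 (7.17 TPM), and all 7 were named after their values were seen.

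The 3 C4-2B libraries held from 44992971 to 49569026 counts in genes. As to the labelled cell type, all 8 prostate luminal genes of the list were expressed in every library, with a summed level of 3857 to 3898 TPM. Summed levels were 0.787 to 0.998 TPM for 3 basal genes, with TP63 at 0 counts, and 0.174 to 0.720 TPM for 3 leukocyte genes. The leukocyte sum is a lower limit, since 85.8% of the exon bases of CD68 lie under other genes, where reads were not assigned. For 4 fibroblast genes the sum was 6.43 to 7.51 TPM, almost all from COL1A1, with COL1A2 and DCN at 0 counts. The plasma cell genes JCHAIN and TNFRSF17 were at 0 counts and 0.686 TPM, while MZB1, an ER protein of plasma cells, was at 10.8 TPM. SDC1, which epithelia also express, was at 67.7 TPM. The neuroendocrine genes CHGA and SYP were at 1.38 and 1.31 TPM in a list of 4 that summed to 2.66 to 3.18 TPM, and 2 endothelial genes summed to 2.70 to 3.24 TPM. The part of other cells in the levels below was not tested, and in bulk RNA fewer expressing cells and less RNA per cell cannot be told apart.

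Nearly the whole set was expressed. A TPM of at least 1 in every library was reached by 39 of the 41 genes, compared with 12059 of 19708 protein-coding genes (61.2%) and 32.8% of all genes. The exceptions were ERN2 and CREB3L1. Together the 41 genes took 8185 ± 39.6 TPM (SD, n = 3), which is 0.819% of the total. Their median was 68.8 TPM, compared with 22.2 TPM for expressed protein-coding genes, and 34 of 41 lay above that value. Of the 41, 16 were above the 90th percentile of expressed protein-coding genes, which lay at 104 TPM, and 3 were among the 100 most abundant, namely CALR (rank 35), HSPA5 (rank 71) and HSP90B1 (rank 74).

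**Figure D2:**
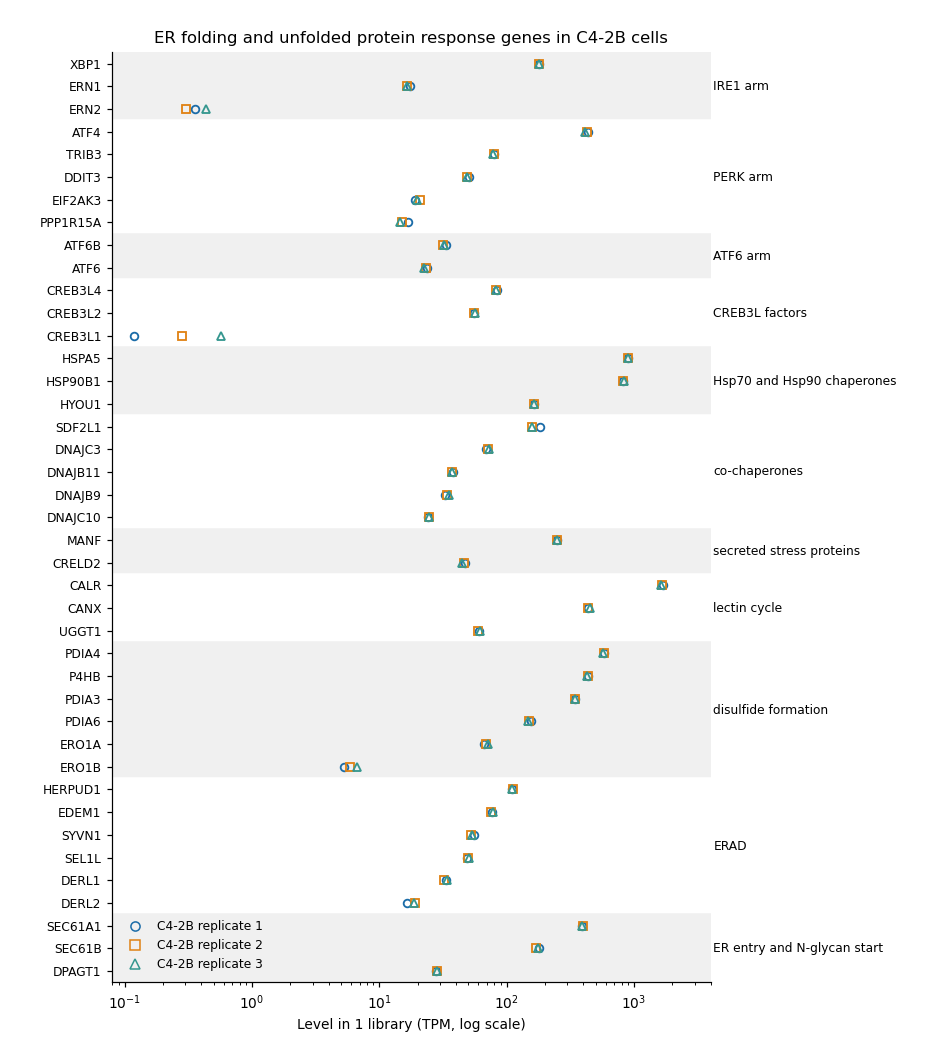
Level of each of the 41 genes in each C4-2B library, in TPM on a log axis, with the genes grouped by role. The 3 symbols of a gene mostly coincide, except for CREB3L1, which ran from 0.120 to 0.570 TPM, and the levels span from below 1 TPM to 1681 TPM for CALR.

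The 3 sensors lay close together, low within the set and near the median of expressed protein-coding genes (22.2 TPM). ATF6 was at 23.5, 23.4 and 22.5 TPM in replicates 1, 2 and 3. EIF2AK3 was at 19.1, 21.0 and 19.7 TPM, and ERN1 was at 17.4, 16.5 and 16.5 TPM. The ranges of the 3 sensors did not overlap, and in every library ATF6 exceeded EIF2AK3 and EIF2AK3 exceeded ERN1, with a ratio of ATF6 to ERN1 of 1.38 ± 0.0347 (SD, n = 3). The upper part of this order rests on the counting, because 15.1% of the exon bases of EIF2AK3 lie under exons of other genes, where reads were not assigned. With lengths restricted to bases outside such overlaps, EIF2AK3 was at 22.4 ± 1.08 TPM and ATF6 at 22.1 ± 0.539 TPM (SD, n = 3 each), with ATF6 above in 1 of 3 libraries, so their order was not settled. ERN2, the second IRE1 gene and known from mucous epithelia, had 26, 24 and 32 counts, or 0.365 ± 0.0661 TPM (SD, n = 3). If every count were independent, counting error would put its 82 counts between 65.2 and 102 (exact Poisson, 95%). Mates of a pair were counted separately, so this range is too narrow. The ERN1 level was 47.0 ± 8.42 times that of ERN2.

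In the IRE1 arm, the abundant RNA was that of the substrate. XBP1 (chromosome 22, 28794555 to 28800597, minus strand) was at 180.1, 180.0 and 178 TPM, and its CV between libraries was 0.603%. The ratio of XBP1 to ERN1 was 10.7 ± 0.286 (SD, n = 3). RTCB, the ligase that rejoins the XBP1 exons, was at 92.6 ± 2.47 TPM and TRAF2, a partner of IRE1 in signalling, at 36.7 ± 1.11 TPM (SD, n = 3 each). A processed pseudogene of XBP1, XBP1P1, took 123 counts over the 3 libraries, or 0.501% of the XBP1 counts.

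In the PERK arm, ATF4 was the most abundant gene. ATF4 (chromosome 22, 39519695 to 39522685, plus strand) was at 435, 427 and 417 TPM. TRIB3, an ATF4 target that restrains it, was at 79.2, 80.3 and 78.1 TPM. DDIT3, which encodes the pro-apoptotic factor CHOP, was at 50.9, 48.9 and 48.6 TPM. ATF4 thus exceeded both TRIB3 and DDIT3, at 8.62 ± 0.103 times DDIT3, and TRIB3 was 1.603 ± 0.0438 times DDIT3 (SD, n = 3 each). DDIT3 shares 28.0% of its exon bases with MARS1, so its level is a lower limit, and it was 65.5 ± 1.69 TPM (SD, n = 3) with lengths outside overlaps. PPP1R15A (GADD34), the stress-induced subunit that directs dephosphorylation of eIF2alpha, was at 16.9, 15.2 and 14.6 TPM, the lowest of the arm. Its constitutive relative PPP1R15B was 6.32 ± 0.636 times as high (SD, n = 3).

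In the ATF6 arm, ATF6B, a relative of ATF6 with weaker activity, was at 33.6, 31.8 and 32.1 TPM. It exceeded ATF6 in every library, by 1.41 ± 0.0404 times (SD, n = 3), and their ranges did not overlap. The proteases that release ATF6 were expressed, with MBTPS1 at 32.1 ± 1.12 TPM and MBTPS2 at 20.5 ± 0.113 TPM (SD, n = 3 each). The NF-Y subunits NFYA, NFYB and NFYC, which bind the CCAAT end of ERSE, had means of 37.2, 19.7 and 19.5 TPM. Across arms, the effector RNAs stood in the order ATF4, XBP1 and ATF6, with ATF4 at 2.38 ± 0.0381 times XBP1 and XBP1 at 7.76 ± 0.144 times ATF6 (SD, n = 3 each). No 2 of these 3 genes overlapped between libraries.

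The CREB3L factors are ATF6-like membrane proteins that are cleaved in the Golgi, and they divided sharply. CREB3L4, which is known from prostate, was at 84.5, 83.3 and 82.8 TPM. CREB3L2 was at 55.1, 55.8 and 56.2 TPM. CREB3L1 had 7, 18 and 34 counts, or 0.120, 0.280 and 0.570 TPM. If every count were independent, counting error would put its 59 counts between 44.9 and 76.1 (exact Poisson, 95%). With mates counted separately, this range too is too narrow. CREB3L4 and CREB3L2 did not overlap, with a ratio of 1.4998 ± 0.0293 (SD, n = 3), and both were above every sensor. The mean of CREB3L1 was 0.200 TPM without replicate 3, and 0.425 TPM without replicate 1, so its value rests on few counts that differ between libraries.

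The chaperones of the Hsp70 and Hsp90 families were among the most abundant RNAs of the set. HSPA5 (BiP; ENSG00000044574, chromosome 9, 125234853 to 125241330, minus strand) was at 900.4, 903 and 902 TPM, the smallest relative spread of the set, with a CV of 0.147%. HSP90B1 (GRP94; ENSG00000166598, chromosome 12, 103930107 to 103953645, plus strand) was at 816, 827 and 838 TPM. HYOU1 (GRP170), which exchanges the nucleotide of HSPA5 and holds unfolded clients, was at 164, 165 and 165 TPM. HSPA5 was above HSP90B1 in every library, by 1.09 ± 0.0131 times, and above HYOU1 by 5.47 ± 0.0128 times (SD, n = 3 each). With exon bases outside other genes the first ratio was 1.01 ± 0.0121 (SD, n = 3) and was above 1 in 2 of 3 libraries, so the order of HSPA5 and HSP90B1 was not settled. Pseudogenes named after these genes took few counts, with 15 in HSPA5P1 and 115 in HSP90B2P over the 3 libraries.

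The co-chaperones of HSPA5 were lower. DNAJC3 (P58IPK) was at 69.2, 71.2 and 72.6 TPM, DNAJB11 (ERdj3) at 37.8, 37.2 and 37.6 TPM, and DNAJB9 (ERdj4) at 33.1, 34.2 and 35.5 TPM. DNAJC10 (ERdj5), a J protein that also reduces disulfides, was at 24.4, 24.6 and 24.8 TPM. HSPA5 alone was thus 5.39 ± 0.0926 times the sum of these 4 J-domain genes (SD, n = 3). Gene models differ in length, since the exons of DNAJC10 add up to 21835 bases and those of HSPA5 to 3908, and on the CPM scale, which is not per length, the ratio was 2.83 ± 0.0364 (SD, n = 3). Exons of other genes cover 23.2% of those of DNAJB11, which was at 46.5 ± 0.352 TPM (SD, n = 3) with lengths outside overlaps. SDF2L1, a partner of DNAJB9 and DNAJB11, was at 183, 158 and 158 TPM, higher in replicate 1 than in the others. Its 1099 exon bases are the fewest of the set.

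Of the secreted stress proteins, MANF, a cofactor of HSPA5 that is released when ER calcium falls, was at 249, 249 and 251 TPM. CRELD2, which has disulfide isomerase activity, was at 46.9, 46.1 and 44.8 TPM. The CV was 0.388% for MANF and 2.39% for CRELD2.

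The lectin cycle binds glycoproteins that carry a single glucose. CALR, the soluble lectin calreticulin (ENSG00000179218, chromosome 19, 12938578 to 12944489, plus strand), was at 1681, 1659 and 1625 TPM and was the most abundant of the 41 in every library. CANX, the membrane lectin calnexin, was at 432, 438 and 448 TPM. UGGT1, which senses misfolded glycoproteins and restores their glucose, was at 60.5, 59.3 and 61.6 TPM. The soluble lectin thus exceeded the membrane lectin by 3.77 ± 0.133 times, and UGGT1 exceeded its relative UGGT2 by 5.15 ± 0.0731 times (SD, n = 3 each). The CV between libraries was 1.70% for CALR and 1.86% for CANX.

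Disulfide bonds are placed by protein disulfide isomerases and renewed by ERO1 oxidases. PDIA4 (ERp72) was at 587, 582 and 574 TPM, P4HB (PDI) at 439, 435 and 431 TPM, and PDIA3 (ERp57), which works with the lectins, at 343, 344 and 343 TPM. PDIA6 (P5), which also restrains IRE1 and PERK, was at 155, 149 and 148 TPM. These 4 genes kept the same order in every library. PDIA6 and PDIA3 share 25.2% and 18.9% of their exon bases with other genes, and with lengths outside overlaps they were at 192 ± 4.86 and 404 ± 0.692 TPM (SD, n = 3 each), which left the order as it was. PDIA3P1, a transcribed pseudogene, held 867 counts over the 3 libraries, 1.32% of those of PDIA3, and reads that fit both places were not counted.

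Both oxidases were below each of these 4 isomerases. ERO1A was at 66.4, 69.0 and 70.9 TPM. ERO1B, known from pancreas, was at 5.25, 5.89 and 6.63 TPM, the lowest gene of the set that passed 1 TPM. ERO1A was 11.7 ± 0.977 times ERO1B, and the 4 isomerases summed were 20.2 ± 0.990 times both oxidases summed (SD, n = 3 each). ERO1B is also the lowest of the 7 genes of the set with ERSE.

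Genes of ER-associated degradation (ERAD), which returns misfolded proteins to the cytosol, held a middle position. HERPUD1, a scaffold of the pathway, was at 110.1, 112 and 111 TPM. EDEM1, which trims mannose from failing glycoproteins, was at 77.4, 76.03 and 78.7 TPM. The ubiquitin ligase SYVN1 (HRD1) was at 55.6, 52.5 and 53.4 TPM and its partner SEL1L at 49.0, 49.6 and 50.6 TPM. SYVN1 and SEL1L were therefore near parity, with SEL1L at 0.924 ± 0.0371 of SYVN1 (SD, n = 3). The derlins DERL1 and DERL2, membrane proteins of the exit channel, had means of 33.3 and 18.2 TPM, with ranges of 32.3 to 34.2 and 16.6 to 19.0 TPM that did not overlap.

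At the entry of the ER, SEC61A1, the channel subunit of the translocon, was at 389.5, 399 and 394 TPM. SEC61B, its small beta subunit, was at 179, 172 and 176 TPM, and the ratio of SEC61A1 to SEC61B was 2.25 ± 0.0752 (SD, n = 3). DPAGT1, which starts the lipid-linked glycan, was at 28.1, 28.3 and 28.4 TPM. DPAGT1 shares 21.3% of its exon bases with C2CD2L and was at 34.2 ± 0.190 TPM (SD, n = 3) with lengths outside overlaps.

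To compare the arms with the folding machinery, levels were summed by role. Roles hold from 2 genes (the ATF6 arm and the secreted stress proteins) to 6 (disulfide formation and ERAD). A sum depends on how many genes were listed. The lectin cycle had the highest sum at 2154 ± 19.3 TPM, followed by the Hsp70 and Hsp90 chaperones at 1894 ± 11.99 TPM and disulfide formation at 1584 ± 10.999 TPM (SD, n = 3 each). The sums of the arms were 590 ± 11.9 TPM for PERK, 197 ± 1.38 TPM for IRE1 and 55.6 ± 1.28 TPM for ATF6, and that of the CREB3L factors was 139.5 ± 0.219 TPM (SD, n = 3 each). ATF4 gave 72.2% of the PERK sum and XBP1 91.3% of the IRE1 sum, while ATF6B and CREB3L4 gave 58.4% and 59.9% of theirs. CALR gave 76.8% of the lectin sum, which was 499.8 ± 8.91 TPM (SD, n = 3) without it, below the chaperone and disulfide sums. Entry into the ER summed to 598 ± 1.19 TPM, ERAD to 343 ± 2.86 TPM, the co-chaperones to 334 ± 11.96 TPM and the secreted stress proteins to 296 ± 0.242 TPM (SD, n = 3 each).

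The 19 genes of the folding roles had a median of 160.0 TPM, compared with 32.5 TPM for the 13 genes of the arms and CREB3L factors. The difference of medians was 2.26 ± 0.01 on the log2(TPM + 1) scale (SD, n = 3 libraries), and it was 2.26, 2.28 and 2.26 in replicates 1, 2 and 3. Genes are not replicates, so no test was made. By mean level both sets overlapped, with 6 of the 19 folding genes above ATF4, the highest of the 13, and 2 of the 13 (ATF4 and XBP1) above the folding median. The difference was 1.67 when ERN2 and CREB3L1, the genes under 1 TPM, were left out.

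**Figure D3:**
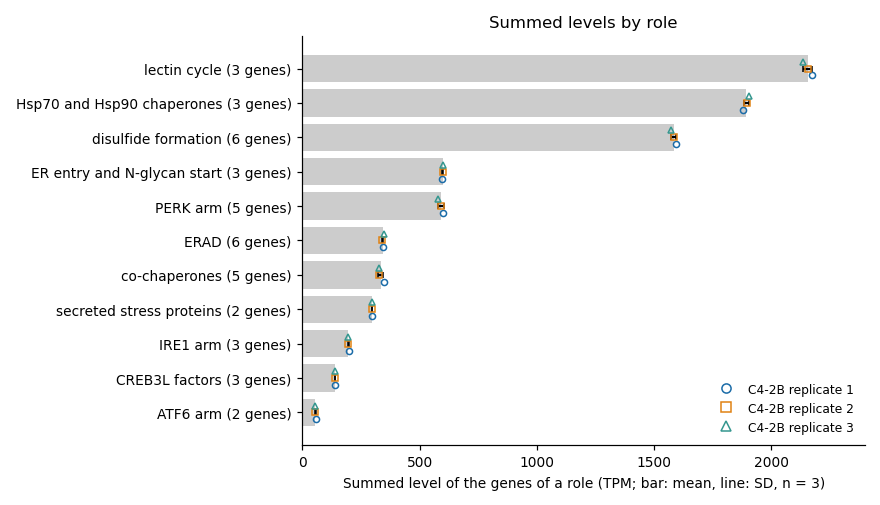
Summed TPM of the genes of each role, with bars for the mean and lines for the SD over 3 C4-2B libraries and symbols for each library. The lectin cycle (3 genes), the Hsp70 and Hsp90 chaperones (3) and disulfide formation (6) each reach at least 1573 TPM in every library. The ATF6 arm (2 genes) stays between 54.6 and 57.1 TPM.

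To place the ER chaperones among their relatives elsewhere in the cell, families were compared per length. HSPA8, the constitutive cytosolic Hsp70, was 1.33 ± 0.0117 times HSPA5, and HSPA5 was 3.38 ± 0.0733 times HSPA9, the mitochondrial Hsp70 (SD, n = 3 each). In the Hsp90 family, cytosolic HSP90AB1 was 2.87 ± 0.00163 times and HSP90AA1 1.22 ± 0.00867 times HSP90B1, while HSP90B1 was 7.11 ± 0.158 times mitochondrial TRAP1 (SD, n = 3 each). HSPA5 and HSP90B1 thus lay between these cytosolic and mitochondrial genes in all 3 libraries, whereas HYOU1, also of the Hsp70 family, lay below HSPA9. TRAP1 is a lower limit, since 29.3% of its exon bases lie under other genes. HSPA1A and HSPA1B, the heat-inducible pair, are near-identical copies, and their counts of 56 and 16989 over the libraries cannot be assigned with confidence.

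Among the kinases of eIF2alpha, PERK was not the most abundant RNA. EIF2AK1 (HRI) was 4.39 ± 0.252 times and EIF2AK4 (GCN2) 1.93 ± 0.0958 times EIF2AK3, and EIF2AK2 (PKR) was 0.815 ± 0.0423 times EIF2AK3 (SD, n = 3 each). EIF2S1, which encodes eIF2alpha itself, was at 105 ± 3.16 TPM (SD, n = 3). All 4 kinases act on eIF2alpha, and their parts in the ATF4 level were not tested.

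**Figure D4:**
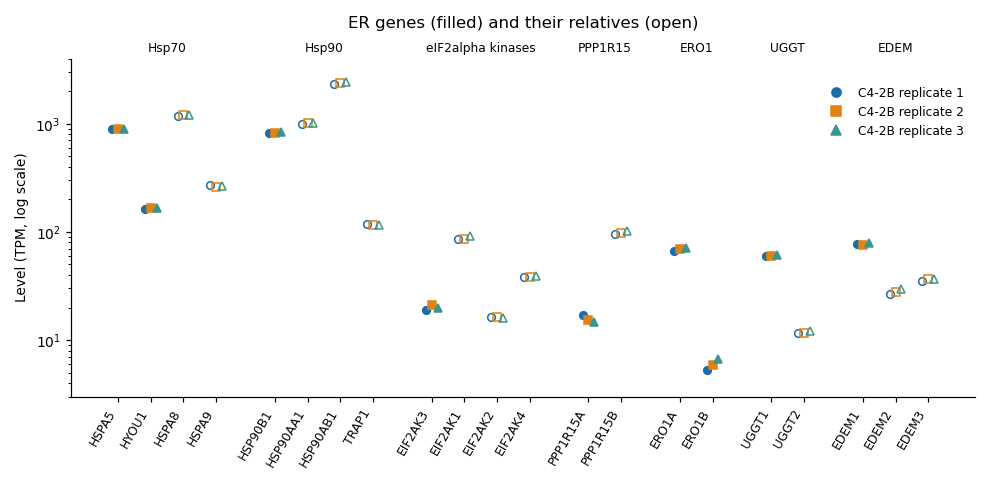
TPM on a log axis in each C4-2B library for genes of the set (filled) and their relatives (open), by family. HSPA5 and HSP90B1 lie between a cytosolic and a mitochondrial relative, and EIF2AK3 lies below EIF2AK1 and EIF2AK4.

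The rest of the pathway was read from 108 further genes in 9 lists. Of these, 107 were expressed at 1 TPM or more in every library, AGR3 being the exception with 2, 0 and 2 counts. The highest were RPN1 (398 ± 5.80 TPM), RPN2 (394 ± 8.38 TPM) and GANAB (381 ± 2.05 TPM; SD, n = 3 each), which belong to glycan transfer and trimming. That list of 16 genes had a median of 114 TPM, compared with 52.0 TPM for 15 further isomerase relatives and 33.7 TPM for 17 further folding factors. AGR2, an isomerase relative known from mucous and prostate epithelium, was at 18.9 ± 0.613 TPM, or 0.0435 ± 0.00107 of P4HB (SD, n = 3). The KDEL receptors, which return escaped chaperones to the ER, had means of 183 TPM (KDELR2), 114 TPM (KDELR1) and 26.4 TPM (KDELR3). Further folding factors ran from FKBP7 (1.82 TPM) to PPIB (244 TPM), further translocon genes from SEC11C (26.5 TPM) to SSR3 (230.1 TPM), and further ERAD genes from DERL3 (14.4 TPM) to VCP (310.04 TPM). Isomerase relatives reached 194 TPM (PRDX4) and glycan genes started at 12.7 TPM (ALG6). The 11 partners of the arms lay between 19.5 TPM (NFYC) and 105 TPM (EIF2S1).

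All 13 listed targets of ATF4 and CHOP were expressed, and they spread widely. PSAT1 and DDIT4 were highest at 369 ± 6.11 and 355 ± 17.4 TPM, and ASNS, asparagine synthetase, was lowest at 7.88 ± 0.0574 TPM (SD, n = 3 each). Exons of other genes cover 44.6% of ASNS and 41.2% of DDIT4, so both levels are lower limits. With exon bases outside other genes, DDIT4 was at 575 ± 28.3 TPM, above PSAT1 at 352 ± 5.77 TPM, and ASNS was at 13.5 ± 0.0991 TPM, above VLDLR at 13.2 ± 0.168 TPM (SD, n = 3 each). The ratio of ATF3 to DDIT3 was 1.04 ± 0.0338, and 0.752 ± 0.0243 with exon bases outside other genes (SD, n = 3 each). CHAC1 was at 18.1 ± 1.05 TPM (SD, n = 3). These genes also answer to other inputs than PERK.

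The load of secretory clients was set beside the chaperones. KLK3, which encodes prostate-specific antigen, was 2.20 ± 0.0218 times HSPA5, 1.202 ± 0.0333 times CALR and 3.42 ± 0.0766 times PDIA4 (SD, n = 3 each). All 41 genes summed were 4.12 ± 0.0632 times KLK3 (SD, n = 3). The 9 listed prostate clients together took 3283 ± 26.2 TPM (SD, n = 3), most of it from KLK3 with a mean of 1988 TPM. FOLH1 and KLK2 had means of 397 and 321 TPM, and TMPRSS2, AZGP1 and KLK4 of 201, 187 and 167 TPM. MSMB and ACP3 were at 17.8 and 5.25 TPM, and NPY had 0 counts in all libraries.

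The replicates were then compared to see which levels differed by more than counting noise. Each gene's 3 counts were set against the library sizes by a chi-square test, with the statistic divided by 2 because both mates of a read pair were counted, and Benjamini-Hochberg adjustment over 22229 genes. This compares libraries and not conditions. Of the 41 genes, all of which had enough counts, 2 had an adjusted p under 0.05, compared with 0.792% of genes tested (176 genes) and 1.45% of the 10771 genes with at least 1000 counts. An unadjusted p under 0.05 was seen for 10 of the 41 and for 11.3% of genes tested. Without the division, 12 of the 41 passed, against a background of 17.3%. Of the 108 further pathway genes, 107 of which were tested, 2 passed with the division, DDIT4 (374, 351 and 339 TPM) and TRAM1 (102, 104 and 113 TPM), with adjusted p-values of 9.9e-05 and 0.0444 in this chi-square test.

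The genes past the threshold were CALR and SDF2L1. SDF2L1, at 183 TPM in replicate 1 and 158 TPM in both others, had an adjusted p of 0.00428 in this chi-square test across all genes. CALR, whose highest library exceeded its lowest by 1.03 times, had an adjusted p of 9.6e-05 in the same test. The latter is a small difference seen at a depth of 202917 counts. Without replicate 1 neither gene passed, with an adjusted p of 0.979 for SDF2L1 and 0.179 for CALR, and without replicate 3 the adjusted p of CALR was 0.633. CREB3L1, with a 4.77-fold range between libraries, had an adjusted p of 0.249 in the chi-square test and did not pass, but passed without the division, with an adjusted p of 0.00224. Among genes with at least 1000 counts, the median CV was 1.86% for 39 of the 41 and 3.09% for all 10771. These sets were not matched for count, on which the CV depends, so nothing is read from the difference.

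**Figure D5:**
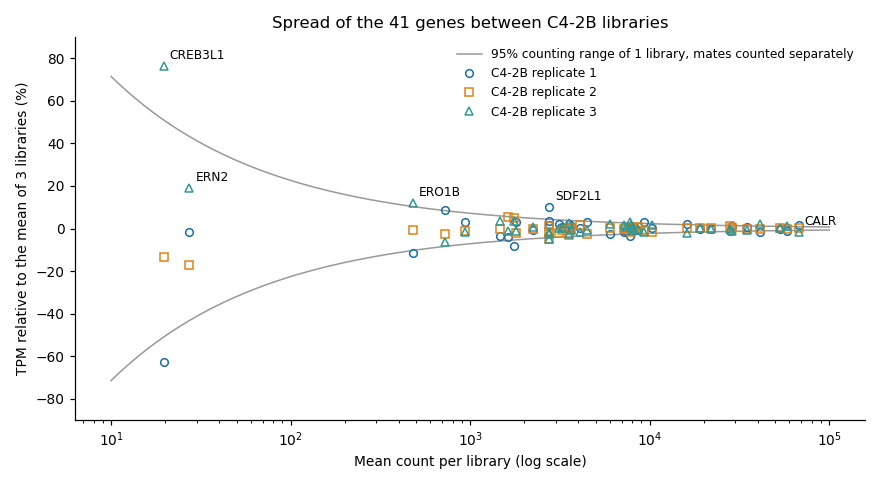
Deviation of each gene's TPM in a library from its mean over 3 C4-2B libraries, in percent, against the mean count on a log axis, with lines for the 95% range of a single library from counting alone when both mates are counted. SDF2L1 in replicate 1 lies above the lines, and points of other genes, CALR, CANX, DERL2 and CREB3L1 among them, also lie outside. CREB3L1, with 59 counts in all, is the most spread. The lines are not adjusted for the number of genes drawn.

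Ordered by mean level, the 41 genes form 40 neighbouring pairs, and the ranges of the 3 libraries overlapped for 14 of them. Overlapping neighbours were found from CANX downward, such as CANX with P4HB and P4HB with ATF4 between 417 and 448 TPM, XBP1 with SEC61B and SDF2L1 with HYOU1 between 158 and 183 TPM, and ERN1 with PPP1R15A between 14.6 and 17.4 TPM. ERN2 and CREB3L1 overlapped too. Of the 14 pairs, 4 nevertheless stood in the same order in all 3 libraries, among them P4HB above ATF4, XBP1 above SEC61B and ERN1 above PPP1R15A, and the other 10 did not. The remaining 26 pairs did not overlap. With exon bases outside other genes, 17 pairs overlapped, HSPA5 with HSP90B1 among them.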

How the data were processed

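Paired-end libraries were made from C4-2B RNA after ribosomal RNA depletion with a directional kit. Alignment by the authors used STAR 2.7.0f and GRCh38. Per the file headers, reads were counted with featureCounts 1.6.3 over Ensembl release 90 genes, so the deposited values are raw counts. Strand and pair options were not set, so mates were counted separately and antisense reads cannot be told apart. Reads at several places or under exons of several genes were not assigned. Exon length, another value per gene in the deposited tables, equalled the merged exons for all 58302 genes.

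TPM was computed from counts and these lengths, with symbols matched for 57532 genes and gene types from GENCODE 44. Totals were 44992971, 49569026 and 46232076 counts. Means and SDs are over 3 libraries. Genes and lists were chosen with earlier results of these data known, and all 41 genes are named. Of the other lists, the highest and lowest genes, relatives and clients were to be named, and any further gene was chosen after its values were seen. Alternatives covered the TPM denominator, gene length, CPM, pseudocount, scaling (DESeq2 size factors, totals), count minimums and each replicate left out. The chi-square test (2 degrees of freedom, TMM sizes from edgeR 4.0.16, at least 30 counts) ran in scipy 1.17.1 and was tested on simulated data. The simulation drew mates in pairs, the model behind the division, so it cannot show whether the division fits these libraries. Poisson intervals cover counting error only, at 95%, and treat mates as independent counts, so they are too narrow. Promoters were RefSeq sequences on primary chromosomes, with 1 start kept per symbol. Protein sequences were not used here.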

Additional observations from a re-analysis of the deposited data

How the results depend on the processing

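No paired analysis was possible because files of 1 labelled group, C4-2B, were analysed here. The number of genes at 1 TPM or more was 39 under every alternative run, including minimums of 0.5 and 5 TPM. The summed level of the 41 genes was 11406 TPM over a denominator of protein-coding genes, 11588 TPM without RN7SL2 and mitochondrial genes, 8346 TPM with exon bases outside other genes, and 10711 on the CPM scale, as each rescales the values. Leaving out 1 replicate gave 8164 to 8204 TPM. The difference of folding and arm medians (log2) was 2.40 with exon bases outside other genes, 1.75 on the CPM scale, which is not per length, 2.30 with a pseudocount of 0.1, 2.32 with list means and 1.67 for genes of at least 1 TPM, since the lowest arm genes drop out. Overlapping neighbours numbered from 3 to 14 when 1 replicate was left out, with 3 without replicate 1, and were 17 with exon bases outside other genes and 12 on the CPM scale. Ratios between genes and role sums were recomputed after seeing the data. On the CPM scale the following ratios turned: HSPA5 to HSP90B1 (0.908), PDIA4 to P4HB (0.825), ERN1 to EIF2AK3 (1.68), ATF6B to ATF6 (0.652), EIF2AK2 to EIF2AK3 (1.61), CREB3L4 to CREB3L2 (0.496) and SEL1L to SYVN1 (1.61). The ratio of ATF6 to ERN1 fell to 1.002 ± 0.0252 (SD, n = 3) on the CPM scale, with ATF6 above in 1 of 3 libraries. The chaperone sum (2785) exceeded the lectin sum (2541) on that scale. Genes differing between libraries numbered 3835, and 12 of the 41, with the chi-square not divided. Leaving out 1 replicate gave 38 to 223 genes and 0 to 2 of the 41, the lowest without replicate 1 and 44 genes without replicate 3. The other alternatives gave 145 to 236 genes and the same 2 of the 41. The 300-base window, chosen after seeing the data, left the 4 motif counts among the 41 genes as they were, while counts over all promoters were 22, 15, 546 and 279 for ERSE, ERSE-II, the UPRE core and the ATF4 element, against 22, 14, 466 and 250. Low counts limit ERN2 and CREB3L1, whose mean without replicate 3 was 0.618 of that with it.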
